A study of Drosophila melanogaster with 3 samples.

Results

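The regions described here are the reproducible Schnurri peaks that have no counterpart in the first of the 3 biological replicates. They were chosen by the replicate 1 peak calls: a peak of the authors' reproducible list on dm6 was taken when it overlapped none of the 30000 peaks listed for replicate 1 by even 1 bp. This rule gave 332 of 3586 reproducible peaks, or 9.26% (95% Wilson interval 8.35 to 10.3). The same rule would have given 6 peaks (0.167%) in replicate 2 and 10 peaks (0.279%) in replicate 3. The other 3254 peaks, which did overlap a replicate 1 peak, are called matched below, and the 332 are called unmatched. All 3 samples belong to 1 group, with no second condition: chromatin immunoprecipitation and sequencing (ChIP-seq) of whole embryos, both sexes mixed, 0 to 24 h old, from a transgenic fly line that makes Schnurri (gene shn) with GFP fused to its C-terminus. The labels name GFP as the target of the antibody in one field and shn in another, and do not say whether an untagged copy of shn was also present. Whole embryos pool every tissue and stage of that day, so a peak cannot be assigned to a cell type. The deposited lists hold peaks and background regions with a signal value each and no read counts, so the sequencing depth is unknown. The 3 lists are equally long, but 2385 regions passed a −log10 q of 2 in replicate 1, against 5289 in replicate 2 and 7213 in replicate 3. The part of that difference in the results was not tested.

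Schnurri is a large zinc finger protein of the BMP pathway. When the ligand Dpp activates its receptors, the Smad proteins Mad and Medea enter the nucleus, and Schnurri joins them on a short bipartite DNA element and represses the gene beside it, as at brk. Reproducible ChIP-seq lists are built by comparing how peaks rank in different replicates, so a region can enter such a list although 1 replicate has no call there. The recovery of DNA fragments during amplification and sequencing is known to depend on their GC content.

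The sequences below show the reference strand around the summit of 7 unmatched peaks and 1 matched peak, from the RefSeq Release 6 assembly that dm6 uses. The first 3 are among the strongest unmatched peaks by pooled signal, and then follow the unmatched peaks of highest and lowest GC content, and the matched peak closest in pooled signal to the strongest unmatched one. Each reaches 100 bp to either side of the summit, or is the longest stretch of it outside annotated UTRs, which leaves 124 bases at yps and 158 at Fer2LCH. Capitals mark runs of 5 or more G or C.
lgs, chr4:424716-424916, unmatched: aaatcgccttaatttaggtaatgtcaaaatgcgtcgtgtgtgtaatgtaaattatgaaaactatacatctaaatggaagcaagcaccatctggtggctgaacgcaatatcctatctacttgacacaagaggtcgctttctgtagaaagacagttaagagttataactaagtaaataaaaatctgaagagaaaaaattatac
yps, chr3L:12125151-12125274, unmatched: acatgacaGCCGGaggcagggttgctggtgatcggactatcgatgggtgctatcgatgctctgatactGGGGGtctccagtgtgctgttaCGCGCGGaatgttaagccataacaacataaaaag
bun, chr2L:12483868-12484068, unmatched: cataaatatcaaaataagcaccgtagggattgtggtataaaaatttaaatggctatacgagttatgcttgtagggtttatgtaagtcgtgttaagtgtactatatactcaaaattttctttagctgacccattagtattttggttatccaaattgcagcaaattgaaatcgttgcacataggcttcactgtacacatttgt
hth, chr3R:10605136-10605336, unmatched, highest GC: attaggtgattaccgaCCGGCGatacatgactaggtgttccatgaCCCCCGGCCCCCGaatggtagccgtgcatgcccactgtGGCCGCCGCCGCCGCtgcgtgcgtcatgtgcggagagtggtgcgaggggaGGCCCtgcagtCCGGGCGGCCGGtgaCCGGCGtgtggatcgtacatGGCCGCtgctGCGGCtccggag
Cdk1, chr2L:10386289-10386489, unmatched, lowest GC: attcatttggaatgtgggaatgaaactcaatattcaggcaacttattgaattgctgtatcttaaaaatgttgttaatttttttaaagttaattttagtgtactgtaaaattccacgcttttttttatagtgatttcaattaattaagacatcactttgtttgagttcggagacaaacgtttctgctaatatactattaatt
Fer2LCH, chr3R:30388422-30388579, matched: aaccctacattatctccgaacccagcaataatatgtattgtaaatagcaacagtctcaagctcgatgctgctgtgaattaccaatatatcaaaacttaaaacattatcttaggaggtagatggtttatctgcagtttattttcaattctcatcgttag
chinmo, chr2L:1648707-1648907, unmatched: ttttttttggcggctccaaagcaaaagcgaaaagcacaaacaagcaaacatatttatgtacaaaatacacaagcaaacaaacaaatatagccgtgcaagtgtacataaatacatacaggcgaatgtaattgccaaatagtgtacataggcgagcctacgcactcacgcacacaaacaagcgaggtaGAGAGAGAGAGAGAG
Eip75B, chr3L:18029695-18029895, unmatched: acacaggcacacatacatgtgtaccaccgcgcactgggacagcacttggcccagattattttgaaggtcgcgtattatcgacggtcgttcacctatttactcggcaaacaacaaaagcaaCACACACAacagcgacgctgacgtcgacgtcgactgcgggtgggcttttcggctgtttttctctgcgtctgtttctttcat
In the last pair the capitals mark instead a repeat of GAGAGAG or CACACACA, on either strand, a feature described further on; they are the strongest unmatched peaks with each repeat whose window holds no UTR base. The hth window, within coding sequence of this homeodomain partner of Hox proteins, is 68.2% G and C and has 8 capital runs. The Cdk1 window, upstream of the gene for the mitotic kinase, is 26.4% G and C and has 0. The lgs and bun windows, at 33.3% and 32.8%, resemble the AT-rich matched window at Fer2LCH, which is 35.8% G and C over the full window and lies in the gene of a ferritin subunit.

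The unmatched peaks were mostly weak. Their pooled signal, the authors' own value per peak, had a median of 112 (91.7 to 522), against 147 (91.6 to 2020) for matched peaks. Split by pooled signal into 4 classes, the reproducible list had no replicate 1 match for 16 of 897 peaks in the strongest class (1.78%), 53 of 896 in the second (5.92%), 101 of 896 in the third (11.3%) and 162 of 897 in the weakest (18.1%). Replicate 1 contributes to the pooled signal, so this order is a description and no test was made. At the edge of the rule, the nearest misses were 5 bp from a replicate 1 peak, and 8 unmatched peaks lay within 50 bp of one. On the other side, 5 matched peaks owed their match to 50 bp of overlap or less, the smallest being 18 bp, and 58 were matched by a replicate 1 peak ranked below 20000. The median unmatched peak lay 2143 bp from the nearest replicate 1 peak (quartiles 656.5 and 5567.5), and 64 of 332 (19.3%, 15.4 to 23.9) had one within 500 bp. For matched peaks, the nearest replicate 1 peak that did not overlap them was at a median of 1184.5 bp (quartiles 578 and 2467.75).

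The unmatched peaks stood differently in the lists of replicates 2 and 3. Peaks were ranked by signal within each replicate list, with 1 the strongest, and the first 3586 ranks were called the top list. In replicate 2, 330 of the 332 were listed, with ranks from 112 to 20189 and a median of 2684. In replicate 3 all 332 were listed, with ranks from 88 to 11871 and a median of 1711. The medians for matched peaks were 1649.5 in replicate 2 and 1844.5 in replicate 3, so the unmatched peaks ranked lower than matched peaks in replicate 2 and slightly higher in replicate 3. The top list of replicate 2 held 72.0% of unmatched peaks (66.9 to 76.5) and 86.3% of matched ones, beside 85% of all reproducible peaks. The top list of replicate 3 held 88.3% (84.3 to 91.3) and 77.0%, beside 78.1% of all. Of the 330 unmatched peaks listed in both replicates, 243 (73.6%) ranked higher in replicate 3 than in replicate 2, against 1318 of 3240 matched peaks (40.7%). Ranks in these replicates helped decide which peaks were listed as reproducible, so the shares describe the selection and are not independent evidence of binding. Both top lists held 62.3% of unmatched peaks (57.0 to 67.4) beside 68.0% of all reproducible peaks, and 7 (2.11%) were in neither, beside 4.99% of all.

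**Figure D1:**
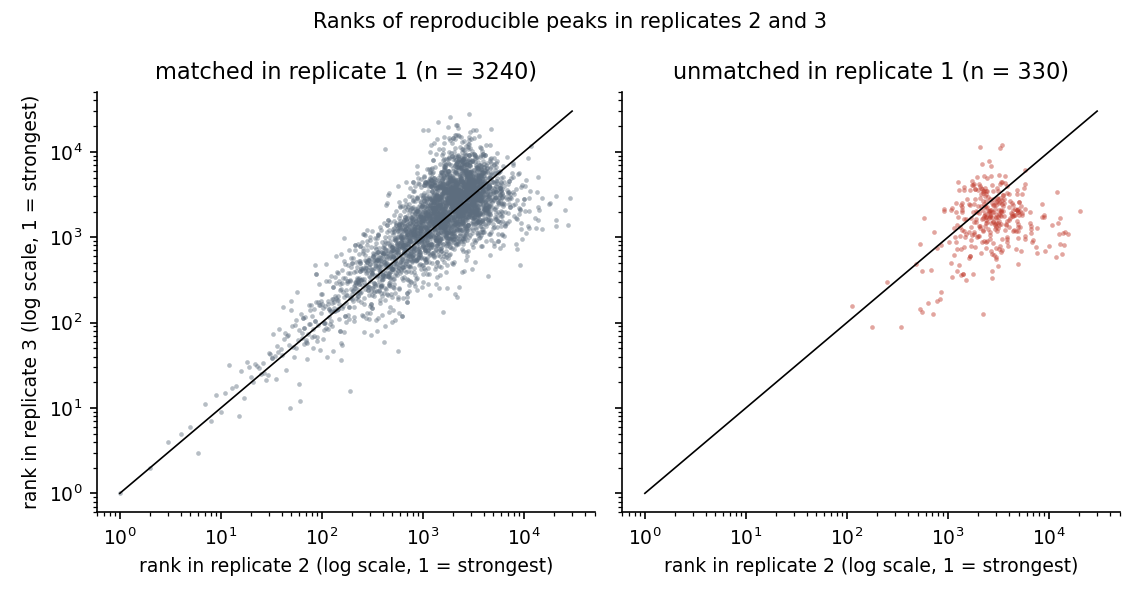
Rank in replicate 2 (x axis) against rank in replicate 3 (y axis), both on log scales with 1 the strongest, for reproducible peaks listed in both replicates. Each point is a peak and the line marks equal ranks. The 3240 matched peaks reach the first ranks of both lists and follow the line, while the 330 unmatched peaks start at ranks 112 and 88 and 243 of them lie below the line.

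The DNA under the unmatched summits was richer in G and C. Within 100 bp of the summit, GC content averaged 43.2% (SD 7.09, n = 332 peaks) at unmatched and 38.5% (SD 6.94, n = 3254) at matched peaks, a difference of 4.70 points (3.9 to 5.50). GC content was at least 45% at 38.6% of unmatched and 16.3% of matched peaks, and under 35% at 13.3% and 33.3%. The difference had the same direction in all 4 pooled signal classes, from 3.99 to 4.56 points, and on all 6 chromosome arms, from 2.49 points on arm 4, with 8 against 6 peaks, to 8.04 on X. It was 3.93 points at summits upstream of a transcription start site (TSS), 4.20 at summits downstream of one and 4.70 away from promoters.

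The difference held at the centre of the peak and changed sign in its surroundings. In the flanks, beyond 100 and up to 500 bp either side of the summit, GC content averaged 40.3% at unmatched and 43.0% at matched peaks, 2.69 points lower (−3.29 to −2.10). Matched summits therefore sat in a trough, on average 4.54 points below their own flanks, and unmatched summits on a rise, 2.85 points above theirs, a difference of 7.39 points (6.49 to 8.29). The centre exceeded the flanks at 65.1% of unmatched and 28.9% of matched peaks. The shape was alike near promoters, at 2.81 and −4.25 points, and away from them, at 2.95 and −5.07. At the summit itself the mean was 44.0% for unmatched and 38.2% for matched peaks, and 410 bp upstream on the reference strand it was 39.4% and 43.5%. Over 500 bp either side of the summit, centre included, the sign of the difference was reversed, at −1.21 points, with 40.9% at unmatched and 42.1% at matched peaks.

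**Figure D2:**
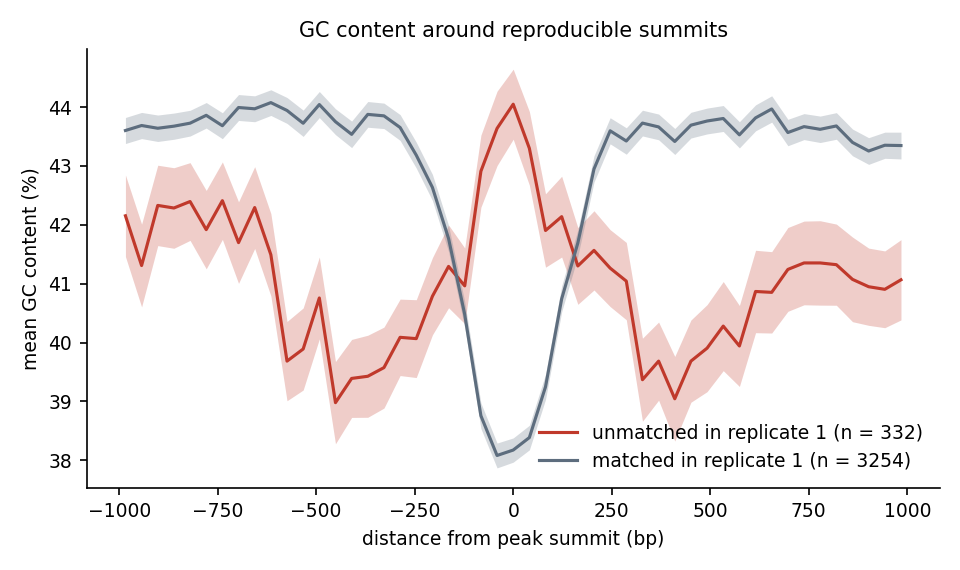
Mean GC content (y axis, percent) against distance from the summit (x axis, bp, reference strand) in bins of 41 bases, with bands of 1 standard error over peaks. Unmatched peaks (n = 332) reach 44.0% at the summit and stand at 39.4% at −410 bp, and matched peaks (n = 3254) stand at 38.2% at the summit and 43.5% at −410 bp.

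A logistic fit over all 3586 reproducible peaks, with pooled signal and peak width as covariates and standard errors clustered over 956 windows of 100 kb, gave an odds ratio of 2.14 for having no replicate 1 match (1.83 to 2.50) per 10 points of GC content (two-sided Wald test, n = 3586 peaks, Benjamini-Hochberg adjusted p = 3.41e-21). GC and location were not used by the rule, but unmatched peaks entered the reproducible list without a replicate 1 call. Ranks in the other replicates varied with GC content, as given below, and replicate 1 contributes to the pooled signal. The odds ratio is therefore not independent of how the peaks were selected. The fit is over peaks of the same 3 samples, so its p-values do not cover the variation between samples. In 5 classes of GC content, the share without a match was 2.52%, 5.82%, 7.03%, 12.6% and 19.5% from lowest to highest. The replicates ordered these classes differently. With peaks that had no match placed below every rank, so that the replicate 1 values draw on the rule, the median rank went from 1429 in the lowest class to 3567.5 in the highest in replicate 1, from 1553 to 2281 in replicate 2, and from 2156 to 1564.5 in replicate 3. Among matched peaks, mean GC content was 37.0% for those ranked 1 to 1000 in replicate 1, 38.1% for those from there to 3586, 40.8% for 3587 to 10000, 43.8% for 10001 to 20000 and 45.6% for 20001 to 30000, so matched peaks low in the replicate 1 list had a GC content like that of the unmatched ones. In a fit with flank GC added after the data were seen, the odds ratio was 2.20 for GC at the summit and 0.384 (0.298 to 0.495, n = 3586 peaks, adjusted p = 1.79e-13) for GC in the flanks. Whether the GC content of the fragments sequenced differed between replicates was not tested, since no reads were used.

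**Figure D3:**
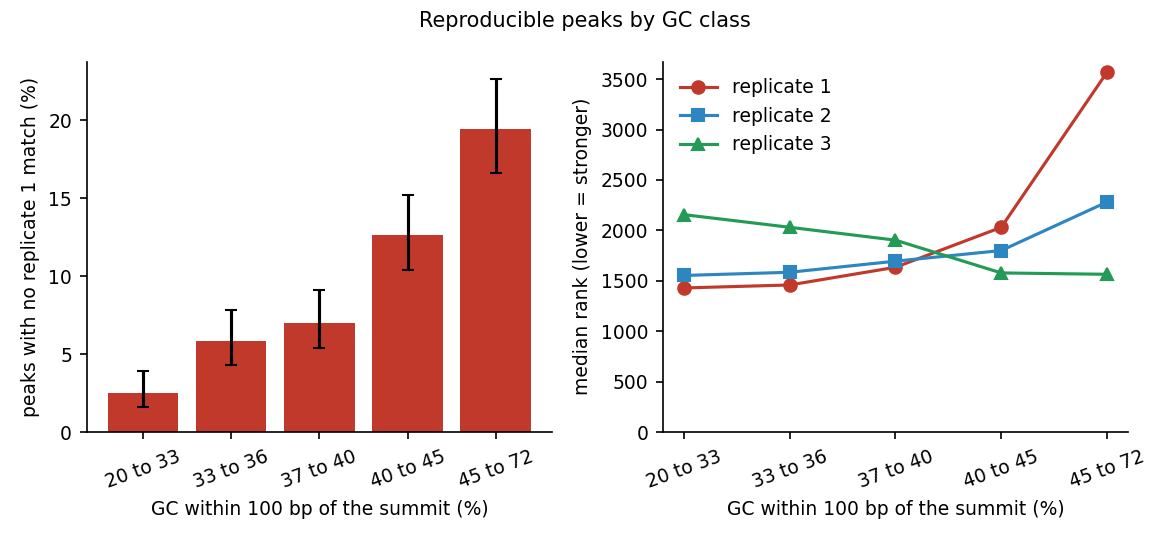
Reproducible peaks in 5 classes of GC content at the summit (x axis, percent). Bars on the left give the percent with no replicate 1 match, with 95% Wilson intervals, from 2.52% to 19.5%; lines on the right give the median rank in each replicate, which in replicate 1 reaches 3567.5 in the class of highest GC while replicate 3 reaches 1564.5.

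Similar shares of unmatched and matched peaks were near promoters, and a larger share of the unmatched ones lay downstream of the start site. A summit within 1 kb of the TSS of a protein-coding gene was called promoter-proximal, which held for 219 of 332 unmatched peaks (66.0%) and 65.1% of matched peaks, a difference of 0.905 points (−4.59 to 6.07). In the logistic fit the odds ratio for a proximal summit was 1.05 (0.809 to 1.37, n = 3586 peaks, adjusted p = 0.708). Of the proximal summits, 100 of 219 unmatched (45.7%, 39.2 to 52.3) lay at or downstream of the TSS, against 479 of 2117 matched (22.6%). The first 100 bp of the transcript held 28.3% of unmatched and 10.2% of matched proximal summits, and the stretch beyond 100 and up to 250 bp upstream held 11.9% and 25.1%. The median position was 14 bp upstream for unmatched and 81 bp upstream for matched summits. Put the other way, 17.3% of all downstream summits had no replicate 1 match, against 6.77% of upstream and 9.04% of distal ones. With promoter side and chromosome terms added to the fit after the data were seen, a downstream proximal summit had an odds ratio of 2.10 (1.53 to 2.87, n = 3586 peaks, adjusted p = 6.32e-06), with GC content at 2.07 in the same fit.

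**Figure D4:**
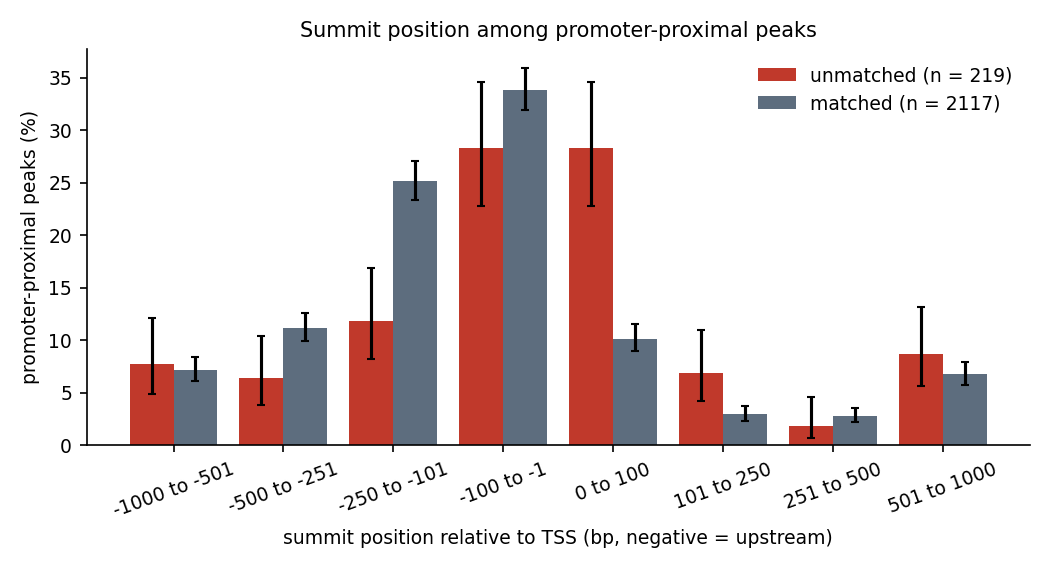
Percent of promoter-proximal summits (y axis) by position relative to the nearest TSS (x axis, bp, negative upstream), for 219 unmatched and 2117 matched peaks, with 95% Wilson intervals. The bin from 0 to 100 bp holds 28.3% of unmatched and 10.2% of matched summits, and the bin reaching to 250 bp upstream holds 11.9% and 25.1%.

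By annotated feature, 87 unmatched summits (26.2%) lay in a 5' UTR, against 11.6% of matched ones, a difference of 14.6 points (10 to 19.7). That difference was 4.92 points (−2.06 to 15.4) among peaks at or above the median pooled signal. Coding sequence held 9 unmatched summits (2.71%, against 0.768%), the 3' UTR 4 (1.20%, against 1.38%), the rest of gene bodies 38.6% (against 41.9%) and intergenic sequence 31.3% (against 44.3%). Promoter-proximal unmatched summits had more than 1 gene within 1 kb in 30.6% of cases and matched ones in 44.6%. In their 5' UTR share, matched peaks ranked low in replicate 1 again stood near the unmatched ones, with 27.6% at ranks 20001 to 30000 and 11.0% at ranks 1 to 1000.

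The strongest unmatched peak lay on the small arm 4, in the 3' UTR of Cals, which encodes the cadherin family protein Calsyntenin. It stood at 120 in the pooled ranking, 112 in replicate 2 and 155 in replicate 3, and the nearest replicate 1 peak was 37230 bp away. Fer2LCH, its matched neighbour in the pooled ranking at 121, ranked 119, 95 and 160 in replicates 1, 2 and 3. The peak nearest lgs, the gene for the Wnt pathway co-activator legless, was also on arm 4 and ranked 178 in replicate 2 and 88 in replicate 3. It lay between genes, 19095 bp downstream of the lgs TSS. The peak 24 bp upstream of yps, which encodes a Y-box RNA-binding protein, ranked 342 and 89. These 3 peaks were among the strongest of both other replicates, with no replicate 1 peak within 6 kb.

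Other strong unmatched peaks lay a few bases from a replicate 1 peak. The second by pooled signal, at Drat on 2R, was 246 bp wide and ended 5 bp short of a replicate 1 peak and 7 bp short of a replicate 2 peak, and ranked 227 in replicate 3. The peak in the body of ush, which encodes a FOG family cofactor of GATA factors, was 111 bp wide and also 5 bp from a replicate 1 peak, and ranked 827 and 188 in replicates 2 and 3. The peak at Rac2, a small GTPase gene, was 138 bp wide and 19 bp from one, and ranked 558 and 134. Of the 20 strongest unmatched peaks 10 were under 400 bp wide. Of all unmatched peaks 4.22% were, against 20.5% of matched ones. The share among matched peaks as strong as those 20 was not measured. In the logistic fit, which includes pooled signal, the odds ratio per log2 unit of width was 1.00 (0.625 to 1.61).

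Other genes were nearest to the rest of the 20 strongest peaks. The peak 4 bp downstream of the TSS of eEF5, a translation factor gene, ranked 680 in replicate 2 and 415 in replicate 3. The peak at RpS4, 4 bp upstream of the nearest TSS, ranked 852 and 802. Peaks within lilli, which encodes a component of the elongation machinery, and bchs, the BEACH domain gene blue cheese, ranked 484 and 641 in replicate 2 and 481 and 171 in replicate 3. The peak in for, the cGMP-dependent kinase gene foraging, ranked 848 and 229, and that in osp ranked 553 and 405. The peaks at NTPase and CG7806 ranked 1339 and 1174 in replicate 2 and 734 and 1009 in replicate 3. In coding sequence the strongest were at hth, Calr, which encodes calreticulin, and Sdb, with ranks of 1687, 2400 and 2622 in replicate 2 and 927, 890 and 1139 in replicate 3. In 3' UTRs, after Cals, the strongest had CG9166 and Neb-cGP as nearest TSS, at 2692 and 1830 in replicate 2 and 1448 and 2479 in replicate 3.

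The gene that encodes the tagged protein held more unmatched peaks than any other gene. Of 25 reproducible summits within shn on 2R, 6 had no replicate 1 match, beside 9.26% of all reproducible peaks. The other genes with more than 1 unmatched summit held at most 8 reproducible summits, so the count at shn partly follows from its many peaks. Their ranks in replicate 2 were 524, 2227, 710, 1626, 4692 and 2997, and in the same order 145, 125, 126, 574, 737 and 755 in replicate 3. Every one of the 6 ranked higher in replicate 3, as did 73.6% of all unmatched peaks listed in both replicates. From each of the 6, the nearest replicate 1 peak was 283 to 2415 bp away. Leaving out 500 kb either side of shn left 9.19% of reproducible peaks unmatched. The other gene with at least 3 unmatched summits in its span was bun, which encodes a TSC22 family regulator of growth, with 4 of its 5 reproducible summits unmatched.

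The chromosome arms differed. The X held 21 unmatched peaks (6.33%) and 630 matched ones (19.4%), so that 3.23% of X peaks (2.12 to 4.88) lacked a replicate 1 match, against 66 of 660 peaks on 2L, 12.5% on 2R, 10.7% on 3L and 8.72% on 3R. In the fit with promoter side and chromosome terms, the odds ratio for X was 0.263 (0.166 to 0.417, n = 3586 peaks, adjusted p = 3.29e-08). The replicate 1 list as a whole was not richer in X peaks than the others, with 14.4% of its 30000 peaks there, against 15.8% and 16.0% in replicates 2 and 3. Of matched peaks, 18.4% lay on X at ranks 1 to 1000 of replicate 1, 12.9% at ranks 10001 to 20000 and 24.1% at ranks 20001 to 30000. Matched peaks low in the replicate 1 list thus had a larger X share than unmatched ones.

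Arm 4, a short and largely heterochromatic chromosome, showed the opposite. There 8 of 14 reproducible peaks (57.1%, 32.6 to 78.6) were unmatched. In the same fit the odds ratio for arm 4 was 35.3, with a wide interval (4.24 to 294, Wald test, n = 3586 peaks, 14 of them on arm 4, adjusted p = 0.00123). The terms for X and arm 4 were added after the data were seen. As 4 of the 8 unmatched peaks shared 1 window of 100 kb, the clustered standard error has little to rest on. The 8 unmatched peaks lay nearest to Cals, lgs, zfh2, RpS3A, Gyf and fuss, with 1 each, and to Asator, with 2. In replicate 2 the 8 ranked 112, 178, 783, 722, 921, 1288, 2694 and 2034, from highest to lowest pooled signal. In replicate 3, in the same order, they ranked 155, 88, 181, 1150, 2136, 3594, 2078 and 1337. The replicate 1 list held 28 peaks on arm 4, against 170 and 150 in replicates 2 and 3. Yet the 6 matched arm 4 peaks included strong ones in replicate 1, such as Sox102F at rank 577, PlexA at 962 and gw at 1180.

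**Figure D5:**
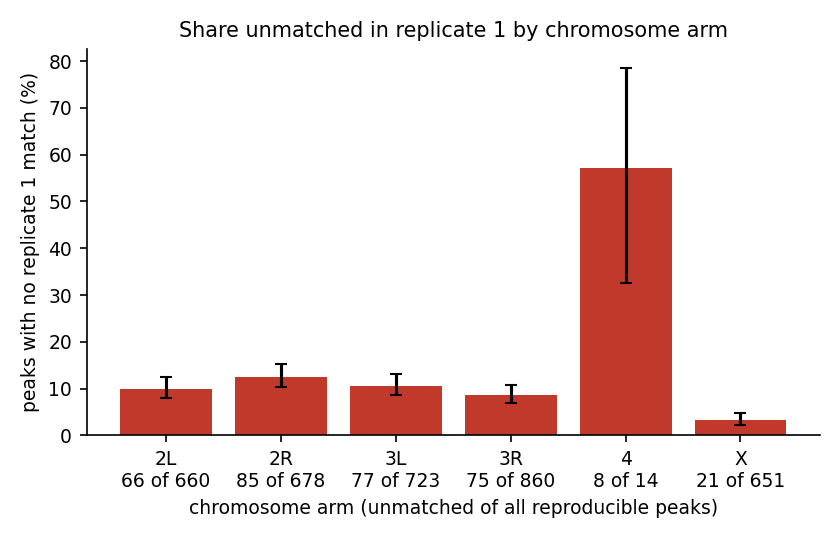
Percent of reproducible peaks with no replicate 1 match (y axis) on each chromosome arm (x axis, with counts), with 95% Wilson intervals. The X stands lowest at 3.23% and arm 4, with 14 peaks, highest at 57.1%.

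Part of the unmatched set lay in long stretches that replicate 1 left empty. An unmatched peak lay in a stretch of at least 20 kb without a replicate 1 peak in 101 of 332 cases, a length chosen after the data were seen, 8 of them on arm 4 and 1, at krz, beyond the last replicate 1 peak of 3R. Matched peaks cannot lie in such a stretch, and the share of the genome in them was not measured, so this count has no baseline. Stretches of that length were present in every list: replicate 1 had 580, replicate 2 had 818 and replicate 3 had 847. In replicate 1, 57 of them, 2694 kb in all, held at least 10 peaks in each of the other lists, a limit also set with the data in view, and 32 of these 57 contained reproducible peaks, 57 peaks in total. In replicate 2 the number of such stretches was 0. In replicate 3 it was 34, of 7037 kb in all, and these 34 held 0 reproducible peaks. The longest of them were 1660 and 1226 kb, both on 3L, and the longest in replicate 1 was 338 kb, on arm 4. A reproducible peak inside an empty stretch has no match in that replicate by definition. Only 6 reproducible peaks had no match in replicate 2 and 10 in replicate 3, so the counts of reproducible peaks inside largely follow from the rule.

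Among the longer of the 57 was a stretch of 71.5 kb on 2L, with 20 peaks in replicate 2 and 21 in replicate 3 and unmatched peaks at GATAd and Ufd4. A stretch of 37.9 kb from position 10372728 of 2L held unmatched peaks at RpS27A, Cdk1, da and CG5096. On 2R, 59.4 kb around the Polycomb group genes Psc and Su(z)2 held 24 and 27 peaks in replicates 2 and 3, and the unmatched peak in the 5' UTR of Su(z)2 ranked 1603 and 1164. A stretch of 64.4 kb over lola, a gene for many BTB zinc finger isoforms, held 22 and 23. The strongest bun peak, at ranks 250 and 300, lay in a stretch of 68.3 kb on 2L with 35 and 40 peaks.

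The 101 peaks in such stretches and the other 231 unmatched peaks differed in degree. Mean GC content was 40.9% (SD 7.53) in the stretches and 44.2% (SD 6.66) outside them, each above the 38.5% of matched peaks. The centre stood above the flanks by 1.80 points in the stretches and 3.31 points outside. The 5' UTR held 17.8% (11.6 to 26.4) and 29.9% (24.3 to 36.1), and the median rank was 2424 and 2749 in replicate 2 and 1986 and 1636 in replicate 3. Without the 101 peaks, the GC difference from matched peaks was 5.71 points and the odds ratio 2.48 per 10 points of GC content.

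Short repeats were more frequent at unmatched peaks. Sequences of 18 kinds were searched on both strands. The interval of the difference between unmatched and matched peaks lay above 0 for 4 kinds, below 0 for 1 and included 0 for 13, with no adjustment over the 18. The letters GAGAGAG stood within 100 bp of the summit of 43 unmatched peaks (13.0%, 9.76 to 17.0) and 4.33% of matched ones, against 4.69% of 19252 windows of the same length centred on TSSs. The letters CACACACA, which can share at most 1 end base with the former, stood in 31 (9.34%, 6.66 to 12.9) and 3.87%, against 4.00% of TSS windows. One or the other was present at 20.2% of unmatched and 7.96% of matched peaks, as in the chinmo and Eip75B windows printed above. Chinmo encodes a BTB zinc finger protein and Eip75B an ecdysone-induced nuclear receptor. The chinmo peak ranked 2711 in replicate 2 and 330 in replicate 3, and the Eip75B peak 2120 and 651.

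The repeats were compared within classes of GC content as well. In the class of highest GC, 34.1% of peaks with GAGAGAG (24.8 to 44.9) had no replicate 1 match, against 17.4% (14.5 to 20.7) without it. In the class below it, the shares were 28.6% (16.3 to 45.1) and 11.8%, and in the middle class 7.41% (2.06 to 23.4) and 7.01%. For CACACACA they were 22.1% (13.8 to 33.3) with it and 19.2% without in the highest class, 30.2% (18.6 to 45.1) and 11.5% in the class below, and 7.41% and 7.01% in the middle class. Differences thus appeared in both upper classes for GAGAGAG and in 1 of them for CACACACA, and the lower classes held few peaks with either repeat. The median rank of peaks with GAGAGAG was 1947.5 in replicate 2 and 1410.5 in replicate 3. With both repeats added to the logistic fit after the data were seen, the odds ratio was 2.18 for GAGAGAG (1.46 to 3.26, n = 3586 peaks, adjusted p = 0.000271), 1.58 for CACACACA (1.00 to 2.49, adjusted p = 0.0642) and 1.99 for 10 points of GC content. Both repeats were among the 4 of 18 kinds whose interval lay above 0 in the same peaks. The fit is thus not independent of that search, and its p-values are not adjusted over the 18. The letters TATAAA were less frequent in unmatched windows, at 18.4% (14.6 to 22.9) against 28.1%, with 26.9% of TSS windows. Within GC classes its direction was not the same throughout. Peaks with TATAAA lacked a match less often in the 3 lower classes, for example 5.38% against 7.58% in the middle one, and not in the upper ones, at 14.4% (9.51 to 21.2) against 12.2% and 20.6% (12.5 to 32.2) against 19.3%. The DNA replication-related element TATCGATA stood in 4.22% and 5.29%, against 6.45% of TSS windows, a difference of −1.07 points (−2.95 to 1.76). The interval also included 0 for CAGGTAG (Zelda), CAGCTG and CACATG (E-boxes), TGANTCA (AP-1), TGACGT (a CRE), CCGGAAGT (ETS), AACNGGTT (Grainyhead), AAAAAAAA, and the GATA, Su(H), M1BP and Ohler 6 motifs. A match of letters is a description and does not show that a factor binds.

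Letters linked to BMP signalling were rare in both sets. The GC-rich Mad site GCCGNCGC stood in 14 unmatched windows (4.22%, 2.53 to 6.95) and 1.78% of matched ones, against 3.40% of TSS windows. The class of highest GC held 46 of the 72 peaks with it, and there 21.7% of those (12.3 to 35.6) lacked a replicate 1 match, against 19.3% of peaks without it. The bipartite silencer element bound by Schnurri with Mad and Medea stood in 3 unmatched windows, at bun, Sox21b and unc-119, and in 2 matched windows, nearest to brk and Atg5, against 0.0416% of TSS windows. The 3 unmatched windows with it ranked 2095, 3106 and 3029 in replicate 2 and 1268, 1725 and 2651 in replicate 3. The matched peak nearest brk, the gene that Dpp signalling silences through this element, ranked 3340, 570 and 46 in replicates 1, 2 and 3, and that nearest Atg5 ranked 24111, 2028 and 1225. Both were thus far lower in replicate 1 than in replicate 3. The unc-119, brk and Atg5 summits lay near each other on X, at positions 7291994, 7299839 and 7317428. The brk summit was at −8100 bp from the brk TSS. These windows are named by nearest TSS and are not separate loci. The counts of windows with the element are too small to compare further.

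A reproducible peak lay within 1 kb of a TSS at 2949 genes, and 279 of them (9.46%) had an unmatched one, and for 221 of them every such peak was unmatched. The gene lists were read against that background, with no test. Of the Dpp pathway genes with a promoter peak, 1 of 9 had an unmatched one, which was shn itself. In the EGFR pathway it was 2 of 11, among them pnt, the ETS factor gene, with ranks 3262 and 2866 in replicates 2 and 3. The JNK list had 1 of 10, the phosphatase gene puc, whose peak 45 bp into the transcript ranked 5256 and 688. The counts were 1 of 6 for ecdysone response (Hr39), 1 of 5 for Wnt (arr, a co-receptor), 1 of 3 for Hedgehog (rdx), 1 of 3 for JAK/STAT (upd2, a ligand), and 1 of 2 for gap and pair-rule genes (hry). They were 1 of 4 for neural determinants (insc), 1 of 3 for tracheal genes (trn) and 1 of 6 for heat shock (Hsp68). A listed gene was not always the nearest. The Hsp68 peak was at −923 bp from the Hsp68 TSS and −54 bp from that of SMC1. No gene had an unmatched promoter peak among 9 Notch pathway genes, 11 bZIP and immediate early genes, 7 insulator and promoter factor genes, 6 actin cytoskeleton genes, 3 mesoderm genes and 3 germline genes. The Hox list had 0 genes with a promoter peak. With so few genes in each list, none of these counts was read as a departure from the 9.46% of all genes.

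Ribosomal protein genes, a list added after the data were seen, had an unmatched promoter peak at 11 of 62 genes (17.7%), and mitochondrial ribosomal protein genes at 3 of 27 (11.1%). The share over all genes with a promoter peak was 9.46%. Among the 11 were RpS4, RpS3A, RpS27A, RpL27, RpL37A, RpL29, RpS18, RpL34b, RpL9 and RpL12, and all but 1 of the 11 had every promoter peak unmatched. Some of these peaks lay nearer to another gene. The RpL34b peak was at −269 bp from its TSS and 0 bp from that of CG8132. The mRpS7 peak was at −273 bp, and −127 bp from Cdk1, and the mRpS16 peak at −74 bp, and −23 bp from cg. RpL27, for example, ranked 1155 in replicate 2 and 624 in replicate 3, and RpS18 ranked 2026 and 1044. The 55 reproducible promoter peaks with a ribosomal protein gene nearest, matched ones included, had median ranks of 873 in replicate 2 and 536 in replicate 3, and a mean GC content of 43.3%. The 10 unmatched ones among them (18.2%, 10.2 to 30.3) had medians of 1729 and 1256.5, and a mean GC content of 41.8%. Other promoter-proximal peaks had medians of 1665 and 1781, and 9.16% of them were unmatched. No test was made of these ranks or shares.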

How the data were processed

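Peaks of 3 biological replicates of GFP ChIP-seq in whole embryos were analysed on dm6, 1-based. Each peak of the deposited lists has its signal and its −log10 q value, both from the authors' peak calling. Which caller and which threshold of the irreproducible discovery rate procedure they used is not given in the sources used here. Read depth is unknown, and the authors' control was not analysed here. Signal was used only to rank or describe peaks within a list. No test compares conditions, because the samples form 1 group.

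The rule was applied in Python 3.11.15 (pandas 2.3.3, numpy 2.4.6). Locations use the Ensembl release 115 annotation and GC content the RefSeq Release 6 sequence. The logistic fit (statsmodels 0.14.6) was over peaks, clustered in 100 kb windows, with Benjamini-Hochberg adjustment over its GC and location terms, and was tested on simulated data. Of 4 such fits, 3 had terms added after the data were seen, and p-values were adjusted within each fit and not across the 4. Intervals on shares are Wilson's or, for differences, Newcombe's at 95%, and cover counting error over peaks, which are not replicates.

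The peaks, gene lists and fits were chosen with earlier results of these data known. Genes named are those nearest the 20 strongest unmatched peaks and the 3 strongest per feature, those holding 3 or more unmatched summits, and up to 3 per gene list; others were chosen after their values were seen. No sequence from 2R or of a UTR is shown, and some genes that the rule would name are not reported here. Alternatives covered the match rule, pooled signal, shn locus, build, promoter and GC windows, clustering, and the top list of replicate 2 or 3.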

Additional observations from a re-analysis of the deposited data

How the results depend on the processing

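The results on the 5' UTR, on the downstream side and on X, and the alternatives without X and 4, without long stretches and with added terms, were chosen after seeing the data. Of 97 values recomputed for 11 results, 76 were counted as unchanged. For odds ratios this meant the same direction and side of the threshold, and for other results a place within the original interval. Where that interval included 0, the sign could change. The promoter-proximal difference was −0.872 points with a TSS within 500 bp and −0.468 among peaks in the top list of replicate 3. With 0.5 of each peak required to be covered, 11.7% of reproducible peaks were unmatched, 36.3% of them had a replicate 1 peak within 500 bp, and the X share differed by −9.00 points. With the summit required to lie in a replicate 1 peak the first 2 values were 11.0% and 31.8%, and with gaps of up to 200 bp taken as matches the share within 500 bp was 13.5%. Among peaks at or above the median pooled signal, 3.85% were unmatched, 97.1% of these were in the top lists of replicate 2 and, likewise, replicate 3, at 97.1%, and 24.6% had a replicate 1 peak within 500 bp. In the same subset the promoter-proximal share differed by −6.47 points, the 5' UTR share by 4.92 points, and the odds ratio for a proximal summit was 0.753. That ratio, never past the threshold, was 0.963 with a TSS within 500 bp. It was 0.965 among peaks in the top list of replicate 3 and 1.05 among those in the top list of replicate 2. GC over 500 bp either side of the summit reversed the GC difference, to −1.21 points, and its odds ratio, to 0.553, because the flanks enter the window; over whole peaks the difference was 2.58 points. Without unmatched peaks in stretches of 20 kb or more it was 5.71 points. Of reproducible peaks in the top list of replicate 2, 7.84% were unmatched, and of those in the top list of replicate 3, 10.5%. These subsets only filter by rank, and no replicate was left out of the reproducible list or its pooled signal. The stricter match rules added unmatched peaks that overlap a replicate 1 peak and so count as within 500 bp of one. Taking gaps of up to 200 bp as matches removed near ones. Under these match rules the share within 500 bp thus moved by construction. The cause of the other changes was not tested. How many of these regions a deeper replicate 1 would have listed was not tested, since read depth is unknown.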
